A study of Mus musculus with 24 samples.

Results

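The 6 h between zeitgeber time 6 (ZT6) and ZT12 were described in mouse liver from 6 of 24 arrays, the 3 labelled ZT6 and the 3 labelled ZT12. Zeitgeber time counts hours from lights on, so that the step covers the later part of the light phase, ahead of the feeding time of a nocturnal animal. All 24 arrays hold liver total RNA from 13-week-old male mice of the strain that the labels spell C56bl/6J, fed chow ad libitum, with 8 time points 3 h apart and 3 arrays at each. Nothing in the labels says whether the 3 replicates of a time point are separate animals, so each p-value reflects only how far these arrays scatter, and that scatter may be technical. The labels give no genotype other than the strain, no treatment and no light schedule. Biotin-labelled single-stranded DNA made from 300 ng of RNA was hybridised to a whole-transcript Affymetrix array, and a gene value is the mean log2 value of the probe sets annotated to 1 symbol, with 23141 genes in all. Differences are ZT12 minus ZT6 on the log2 scale with the standard error (SE) of limma's moderated fit over the 24 arrays, and adjusted p-values are Benjamini-Hochberg values over all 23141 genes. Levels of different genes are not compared, because probes differ in brightness.

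The liver clock is a loop of transcription factors. BMAL1 (gene Arntl) and CLOCK bind E-boxes and drive Per, Cry, Nr1d1, Dbp and Ciart. PER and CRY proteins and CIART then inhibit BMAL1 and CLOCK, REV-ERB proteins (Nr1d1, Nr1d2) repress Arntl through RORE sequences that ROR proteins activate, and DBP, TEF and HLF compete with NFIL3 at D-boxes. In liver the loop and the feeding rhythm together are known to time lipid synthesis, glucose output, bile acid handling and protein synthesis.

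Some arrays stood apart from their labels or from the others. Over 19 clock genes, 7 of the 8 replicate 1 arrays lay nearest to the mean of replicates 2 and 3 at the time point 3 h before their own (an array of replicate 2 or 3 was set against the other of these). ZT6 replicate 1 lay nearest to ZT3, with a root mean square distance of 0.483 against 1.21 from ZT6. ZT12 replicate 1 lay nearest to ZT9, at 0.300 against 1.14 from ZT12, and ZT9 replicate 1 lay nearest to ZT6. Replicates 2 and 3 of ZT6, ZT9 and ZT12 each lay nearest to their own time point. The library labelled replicate 1 is kept in the main comparison. Many of the results are given also on the 16 arrays of replicates 2 and 3. That subset is an alternative and not an independent one. For clock genes the distances come from the same genes. For other genes they come from the same arrays, and leaving out arrays that lie off their time point can narrow the spread of any gene that changes with time. Genes said to pass, rise or fall on replicates 2 and 3 carry this limit, with fewer arrays at each time point. ZT0 replicate 1, which enters only the shared spread and the comparison with the ZT18 to ZT0 step, had a mean correlation of 0.968 with the other 23 arrays, against 0.980 to 0.986 for the rest. Its neutrophil markers had a mean of 9.94 and its Kupffer cell markers 11.8, the highest of the 24 arrays for both lists. No ZT0 array lay nearest to its own time point over the clock genes: replicate 1 lay nearest to ZT3 (1.04 against 1.74 from ZT0), and replicates 2 and 3 to ZT21 (1.185 and 0.421, both 1.19 from ZT0). The 11 measured hepatocyte markers had a mean level per array of 16.08 to 16.12 at ZT6 and 16.02 to 16.16 at ZT12. Many of their probe sets reached the top value of the table, 14 of 15 for Alb and 10 of 11 for Fgb, which limits how far this mean can move. Hnf4a, Cebpa and Asgr1 had 0 such probe sets.

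No gene passed an adjusted p of 0.05 between ZT6 and ZT12 in limma on all 24 arrays (0% of 23141; smallest adjusted p = 0.0989), while 2110 genes (9.12%) had an unadjusted p under 0.05, of which 1238 (5.35%) were higher at ZT12 and 872 (3.77%) lower. All 3 ZT12 arrays lay above all 3 ZT6 arrays for 1851 genes (8% of all) and below them for 1681 genes (7.26%). With the mean also at least 2-fold apart, the counts were 138 higher (0.596%) and 80 lower (0.346%). With 3 arrays against 3, an exact permutation test of a single gene cannot give a p below 0.1. On the 16 arrays of replicates 2 and 3, limma called 100 genes (0.432%), 78 higher (0.337%) and 22 lower (0.0951%). Further counts were 62 with array weights and 13 without ZT12 replicate 1, and 0 to 9 under the other settings tried.

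The genes with the smallest p-values in either direction were not clock genes for the most part. P2ry1, a purinergic receptor for ADP, read 7.06, 7.88 and 7.14 at ZT6 and 8.97, 8.82 and 8.88 at ZT12. Its groups did not overlap, and the difference was 1.53 ± 0.26 (adjusted p = 0.0989). Polr3g, a subunit of RNA polymerase III, read 8.31, 8.39 and 8.39 at ZT6 and 9.32, 9.79 and 10.09 at ZT12. Every ZT12 array lay above every ZT6 array, with a difference of 1.37 ± 0.25 (adjusted p = 0.0989). Rpp38, a protein of the RNase P and RNase MRP complexes, differed by 1.57 ± 0.29. Srm, spermidine synthase, differed by 1.29 ± 0.26, with ZT6 replicate 1 the lowest of the 6 arrays at 8.73. The other genes of this rank with positive differences were Sema6a (1.00 ± 0.18, and -0.03 in its brightest probe set), Wnt5b (1.06 ± 0.21), Wdr37 (1.01 ± 0.20) and Ppp1r3b (3.19 ± 0.64), with adjusted p-values of 0.0989 to 0.121. In limma on replicates 2 and 3, Wdr37 (adjusted p = 0.015), Ppp1r3b (0.0189), Rpp38 (0.0199), Polr3g (0.0435) and Sema6a (0.0483) passed. P2ry1 (0.0973), Srm (0.116) and Wnt5b (0.0508) did not pass there.

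On the negative side stood Flcn, folliculin, which acts in amino acid sensing by mTORC1. It read 9.08, 8.53 and 8.72 at ZT6 and 7.78, 7.62 and 7.26 at ZT12, without overlap. The difference was -1.22 ± 0.21 (adjusted p = 0.0989), and -0.49 in its brightest probe set. Ppfibp1 differed by -0.95 ± 0.19, Cecr2 by -1.13 ± 0.23, Pik3ap1 by -1.24 ± 0.28 and Ctcfl, a dim gene, by -0.87 ± 0.21. Gabarapl1, an ATG8 family member of the autophagosome membrane, read 14.51, 14.91 and 14.62 at ZT6 and 13.78, 13.59 and 12.72 at ZT12. These groups did not overlap (difference -1.32 ± 0.29, adjusted p = 0.147). In limma on replicates 2 and 3, Gabarapl1 passed (adjusted p = 0.04997). Flcn (0.0522), Pik3ap1 (0.0531), Ppfibp1 (0.0973), Cecr2 (0.0988) and Ctcfl (0.155) did not pass there.

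Among the clock genes, Cry1 and Per2 stood higher and Nr1d1 lower at ZT12 in every array, while Arntl, Dbp and Ciart depended on the replicate. Arntl (chr7:113178471-113314126) read 8.56, 6.28 and 6.65 at ZT6 and 7.77, 9.91 and 10.30 at ZT12. The groups overlapped, because replicate 1 ran the other way: its own difference was -0.78. The difference over 3 replicates was 2.17 ± 0.74 (adjusted p = 0.362), and on replicates 2 and 3 Arntl rose by 3.64 (adjusted p = 0.0026). The brightest probe set of Arntl differed by 0.65 over 3 replicates. Clock followed the same split between replicates, at 14.15, 12.41 and 12.50 and then 12.78, 13.57 and 13.58. Its difference was 0.29 ± 0.40 (adjusted p = 0.884), and 1.12 on replicates 2 and 3 (adjusted p = 0.0508).

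Cry1, a repressor whose expression peaks late, read 7.20, 7.13 and 7.34 at ZT6 and 8.76, 9.93 and 9.94 at ZT12. All 3 ZT12 arrays lay above ZT6 (difference 2.32 ± 0.51; adjusted p = 0.147), and on replicates 2 and 3 it rose by 2.70 (adjusted p = 0.0352). Per2 read 8.07, 9.04 and 9.21 and then 10.13, 10.31 and 10.28, again without overlap. Its difference was 1.47 ± 0.43 (adjusted p = 0.254), and 1.17 on replicates 2 and 3 (adjusted p = 0.0894). Nr1d1, which encodes REV-ERB alpha, read 12.13, 11.31 and 11.10 at ZT6 and 9.11, 7.63 and 7.27 at ZT12. It had the largest negative difference of the clock genes, -3.51 ± 0.82 (adjusted p = 0.172), with no overlap of the groups, and -3.76 on replicates 2 and 3 (adjusted p = 0.0643). Its paralogue Nr1d2 differed by only -0.73 ± 0.55.

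Ciart and the D-box factor Dbp, like Arntl, differed in sign between replicate 1 and the others. Dbp read 10.98, 12.40 and 12.84 at ZT6 and 11.76, 8.80 and 8.90 at ZT12. ZT12 replicate 1 lay inside the ZT6 range, and the difference of -2.25 ± 1.12 had an adjusted p of 0.571, whereas on replicates 2 and 3 Dbp fell by 3.77 (adjusted p = 0.000709), which is the smallest of that fit. Ciart read 6.73, 9.23 and 9.08 and then 8.73, 7.16 and 6.90. Replicate 1 ran up by 2.00 while the others ran down, giving -0.75 ± 0.59 over all and -2.12 on replicates 2 and 3 (adjusted p = 0.000828); its brightest probe set differed by 1.72, the opposite sign. Nfil3, the competitor of DBP, stood above in all 3 ZT12 arrays (0.90 ± 0.40, adjusted p = 0.494), though its brightest probe set differed by -0.12, the opposite sign. Bhlhe41 stood below in all 3 (-1.01 ± 0.41, adjusted p = 0.457). Per1 (-0.17 ± 0.60), Per3 (-0.06 ± 0.74), Cry2 (-0.21 ± 0.35), Tef (-0.39 ± 0.35) and Usp2 (0.18 ± 0.79) had small mean differences beside their SE, but in each of these 5 genes replicate 1 and the others had opposite signs. Usp2 differed by 2.88 in replicate 1 and -1.17 on replicates 2 and 3 (adjusted p = 0.321), Per1 by 1.72 and -1.11 (adjusted p = 0.233) and Tef by 0.41 and -0.80 (adjusted p = 0.127). Of the 9 measured kinases, ligases and proteases of clock proteins, 0 had an unadjusted p under 0.05 in limma (9.88% of the genes above background were higher and 2.98% lower).

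**Figure D1:**
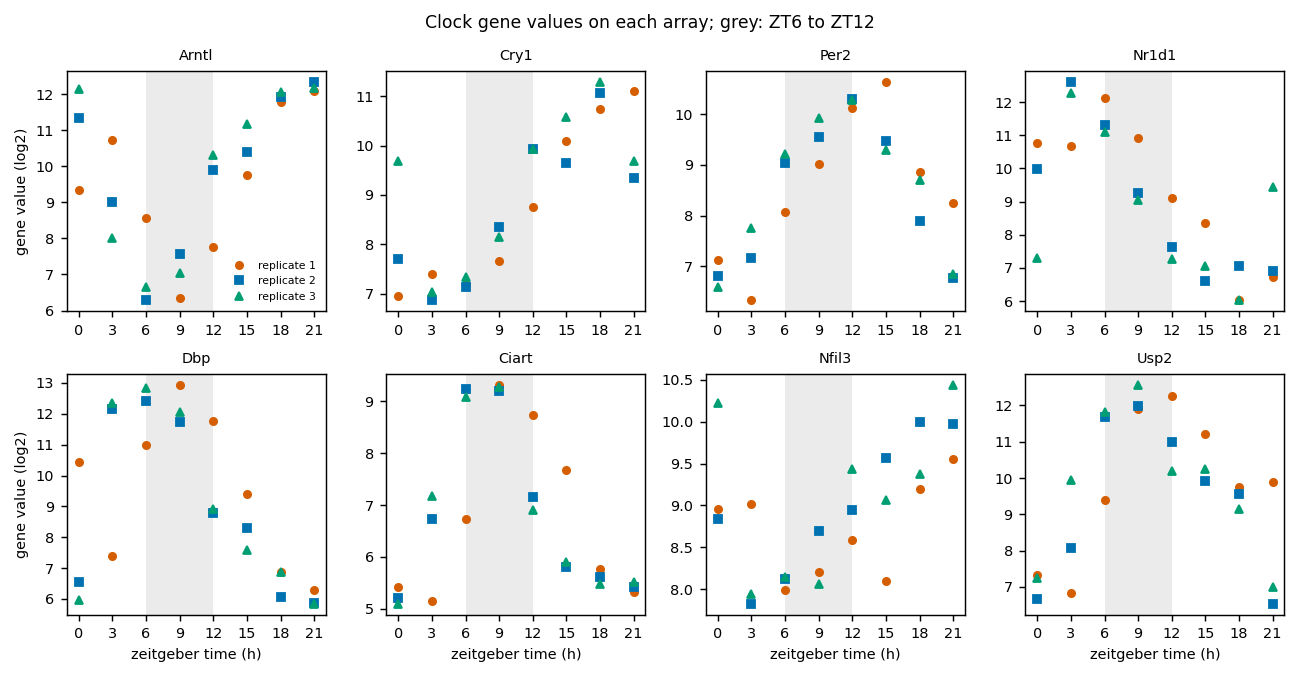
Gene value (log2, vertical axis) of 8 clock genes on each of 24 arrays against zeitgeber time in hours; each point is 1 array, with circles, squares and triangles for replicates 1, 2 and 3, and the grey band marks ZT6 to ZT12. Nr1d1 and Cry1 are separated between ZT6 and ZT12 in all 3 replicates, while for Arntl, Dbp and Ciart the circles of replicate 1 run against replicates 2 and 3, as with Dbp at 11.76 against 8.80 and 8.90 at ZT12.

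The promoters of Ciart and Cry1 are shown because both genes passed on replicates 2 and 3 in opposite directions and both carry the E-box letters. Each sequence is the 250 bases before a RefSeq start in build GRCm38.p6, on the gene's own strand, 5′ to 3′, with CACGTG in capitals (it reads the same on both strands). Ciart, chr3:95882229-95882478 on the minus strand, holds 3 matches, the first at -116 and the last at -44 from the start, and Cry1, chr10:85185055-85185304 on the minus strand, holds 1 at -60.
Ciart: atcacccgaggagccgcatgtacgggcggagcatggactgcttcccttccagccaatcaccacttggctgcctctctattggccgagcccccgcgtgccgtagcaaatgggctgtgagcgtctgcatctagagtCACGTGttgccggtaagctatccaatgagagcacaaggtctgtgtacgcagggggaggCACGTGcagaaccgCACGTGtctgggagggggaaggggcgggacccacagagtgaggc
Cry1: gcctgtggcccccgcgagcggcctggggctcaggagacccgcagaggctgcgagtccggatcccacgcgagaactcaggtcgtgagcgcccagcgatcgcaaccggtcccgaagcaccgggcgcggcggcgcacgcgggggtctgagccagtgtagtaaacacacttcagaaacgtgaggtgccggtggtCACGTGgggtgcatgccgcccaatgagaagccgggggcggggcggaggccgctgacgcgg
The RORE letters, through which REV-ERB proteins act, occur in 1 of 17 clock genes with a RefSeq promoter, Arntl, 27 bases past 1 of its starts (chr7:113207528-113207557, plus strand; 30 bases with the match in capitals).
Arntl: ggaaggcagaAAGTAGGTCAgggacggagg

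Of the 11 genes that rose on replicates 2 and 3 with CACGTG in the window, 5 are printed, 60 bases around the match, to set them beside Ciart and Cry1. They are Insig1 (chr5:28071284-28071343), which retains the SREBP escort protein in the endoplasmic reticulum, Clcn6 (chr4:148038818-148038877), a chloride-proton exchanger of endosomes, Aqp8 (chr7:123462192-123462251), a water channel, Rcan1 (chr16:92466328-92466387), an inhibitor of calcineurin, and Fkbp5 (chr17:28486286-28486345), an HSP90 cochaperone.
Insig1: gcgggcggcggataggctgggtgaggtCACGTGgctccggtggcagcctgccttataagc
Clcn6: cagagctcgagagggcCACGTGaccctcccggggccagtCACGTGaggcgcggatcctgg
Aqp8: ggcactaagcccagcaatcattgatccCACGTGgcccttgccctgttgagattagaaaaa
Rcan1: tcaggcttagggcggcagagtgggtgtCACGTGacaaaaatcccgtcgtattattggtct
Fkbp5: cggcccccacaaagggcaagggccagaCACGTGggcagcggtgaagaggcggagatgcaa
In windows of 250 bases before to 50 after a start, searched on both strands, CACGTG occurred in 8.09% of 27025 genes with a RefSeq promoter and in 12 of the 85 called genes that have one (14.1%), 11 of 66 higher and 1 of 19 lower. The D-box letters TTATGTAA or TTACGTAA occurred in 1.23% of all genes and 3 of the 85, and the RORE letters in 2.87% and 4 of the 85. These are counts of letters and not of bound sites. The shares are not like for like. The 27025 genes were taken whatever their level, while 76 of the 78 higher and 21 of the 22 lower called genes lay above background.

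Among the 78 genes called higher on replicates 2 and 3, the largest change there was that of Pnpla3 (chr15:84167776-84189521). Pnpla3 is a lipase of lipid droplets induced by SREBP1c and feeding. It read 4.92, 4.79 and 5.12 at ZT6 and 5.76, 10.06 and 10.79 at ZT12. All ZT12 arrays lay above ZT6, but replicate 1 by 0.84 only. The difference was 3.93 ± 0.96 (adjusted p = 0.175), and in limma on replicates 2 and 3 Pnpla3 rose 44.5-fold (adjusted p = 0.00509). All its ZT6 values and ZT12 replicate 1 lay below the background of 6.17, so the size of this fold is uncertain. Of the 28 measured genes of triglyceride synthesis and lipases, 6 were higher and 1 lower at an unadjusted p under 0.05 (all genes 5.35% and 3.77%), with a median difference of 0.27 against -0.005 for all genes (0.15 without ZT12 replicate 3 and 0.13 with the brightest probe sets). Gpam, which starts glycerolipid synthesis, read 14.92, 14.70 and 15.04 and then 15.84, 16.74 and 17.57 and rose on replicates 2 and 3 (2.28; adjusted p = 0.015). Pnpla2, the adipose triglyceride lipase, fell there by 1.13 (adjusted p = 0.0282). Lpin1, a phosphatidate phosphatase, read 11.97, 14.36 and 14.78 at ZT6 and 16.87, 15.88 and 14.82 at ZT12, a difference of 2.15 ± 0.88 with 4.90 in replicate 1 and 0.78 on replicates 2 and 3.

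Genes of fatty acid synthesis stood higher at ZT12 as a list. Of 18 measured, all above background, 17 had positive differences and 9 an unadjusted p under 0.05, all higher. Every ZT12 array lay above every ZT6 array for 11 of them, against 1379 of the 10288 genes above background. The median was 0.78 against 0.09 for the genes above background, of which 9.88% were higher and 2.98% lower at that p. Acacb, the mitochondrial acetyl-CoA carboxylase, read 9.57, 9.13 and 9.50 at ZT6 and 10.003, 12.23 and 13.36 at ZT12. Its difference was 2.46 ± 0.73 (adjusted p = 0.255), and 0.96 in its brightest probe set. Acly, which makes cytosolic acetyl-CoA from citrate, read 15.04, 13.16 and 14.15 and then 15.21, 15.75 and 16.45 (1.69 ± 0.59; adjusted p = 0.375). Acss2 differed by 1.87 ± 0.66, Elovl6 by 1.68 ± 0.61, Thrsp by 1.57 ± 0.56 and Fasn, the synthase itself, by 1.47 ± 0.55, with 19 of the 40 probe sets of Fasn at the top value of the table, where a value cannot rise further. ZT6 replicate 2 was the lowest of the 6 arrays for 15 of the 18 genes and ZT12 replicate 3 the highest for 12. Without ZT6 replicate 2 the count of 9 became 3, without ZT12 replicate 3 it became 5, and with the brightest probe set of each gene 2; no member passed an adjusted p of 0.05 on replicates 2 and 3, where the median was 1.18 against 0.16 in replicate 1.

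All 20 measured genes of cholesterol synthesis had positive differences, 11 of them at an unadjusted p under 0.05 (9.88% of the genes above background were higher at that p), with a median of 0.79. Pmvk, phosphomevalonate kinase, read 10.21, 9.13 and 9.93 at ZT6 and 10.96, 12.13 and 12.47 at ZT12 (2.096 ± 0.49; adjusted p = 0.172). Mvd, the next enzyme of the pathway, read 7.46, 7.15 and 7.50 and then 8.23, 9.30 and 10.53 (1.98 ± 0.54) and rose on replicates 2 and 3 (adjusted p = 0.015). The later enzymes Sqle (2.25 ± 0.72), Lss (2.23 ± 0.64), Fdps (1.92 ± 0.55), Fdft1 (1.09 ± 0.42), Dhcr7 (0.97 ± 0.32) and Cyp51 (0.87 ± 0.33) had adjusted p-values of 0.243 to 0.432. Insig1 read 17.92, 16.13 and 16.82 and then 17.64, 18.70 and 18.54, and rose on replicates 2 and 3 by 2.14 (adjusted p = 0.0112) with replicate 1 at -0.28. ZT12 replicate 3 was the highest array for 19 of the 20 genes. The count of 11 became 7 without that array, 7 without ZT6 replicate 2 and 13 on replicates 2 and 3. Aacs, which activates acetoacetate for lipid synthesis, read 10.11, 10.41 and 9.97 at ZT6 and 13.29, 13.86 and 13.96 at ZT12 (3.54 ± 0.80; adjusted p = 0.172), alike in all 3 replicates, and rose on replicates 2 and 3 (adjusted p = 0.0441). Pltp, the phospholipid transfer protein of lipoproteins, differed by 2.40 ± 0.57 and rose on replicates 2 and 3 by 2.64 (adjusted p = 0.0346).

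**Figure D2:**
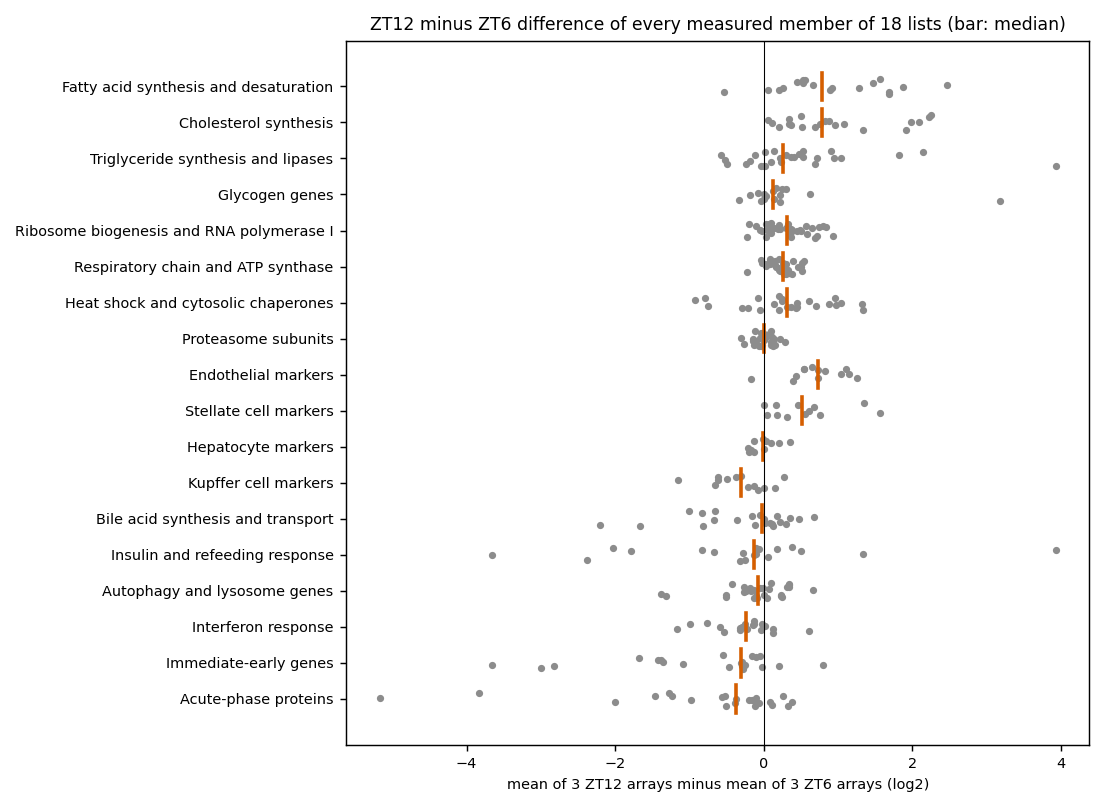
Difference of the mean of 3 ZT12 arrays minus the mean of 3 ZT6 arrays (log2, horizontal axis) for every measured member of 18 gene lists (vertical axis); each grey point is 1 gene and the orange bar is the list median. The medians of cholesterol synthesis (0.79), fatty acid synthesis (0.78) and endothelial markers (0.73) lie farthest to the right and that of acute-phase proteins (-0.38) farthest to the left, and no single gene passed an adjusted p of 0.05.

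Glucose genes held some of the largest single differences. Ppp1r3b, the glycogen-targeting subunit of protein phosphatase 1 in liver (chr8:35375694-35388139), read 11.17, 9.61 and 10.12 at ZT6 and 13.33, 13.46 and 13.67 at ZT12. Its groups were far apart, 9.12-fold in the mean (3.19 ± 0.64; adjusted p = 0.121), and it rose on replicates 2 and 3 by 3.70 (adjusted p = 0.0189). Over the 17 measured glycogen genes the median was 0.13. At an unadjusted p under 0.05 there were 2, both higher (5.35% of all genes and 9.88% of those above background). Pck1, the cytosolic enzyme that commits to gluconeogenesis, read 19.08, 19.26 and 19.32 at ZT6 and 18.97, 16.43 and 15.14 at ZT12. Replicate 1 differed by -0.11 only; Pck1 fell by 3.51 on replicates 2 and 3 (adjusted p = 0.00443), and 7 of its 11 probe sets reached the top value. Pfkfb1, the liver bifunctional enzyme of fructose 2,6-bisphosphate, differed by 1.40 ± 0.38 (adjusted p = 0.216). In the list of 19 insulin and refeeding genes, 2 were higher and 6 lower at an unadjusted p under 0.05 (9.88% and 2.98% of the genes above background). Among the lower genes were Irs2 (-1.78 ± 0.59), Txnip (-2.03 ± 0.79) and Trib3 (-0.84 ± 0.24), whose products act in insulin signalling, glucose uptake and AKT inhibition. Their adjusted p-values were 0.251 to 0.431, and the 6 became 3 without ZT6 replicate 1 and 5 with dim genes left out. Trib3 lay below background, with means of 6.05 at ZT6 and 5.22 at ZT12. The list is mixed: its differences ran from -3.66, that of the immediate-early gene Egr1, to 3.93, that of Pnpla3. Its counts therefore do not give the direction of an insulin response. Slc25a47, a mitochondrial carrier of hepatocytes, read 16.84, 16.77 and 16.77 and then 16.25, 13.94 and 13.64, and fell on replicates 2 and 3 (adjusted p = 0.0492).

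Of 22 genes of bile acid synthesis and transport, 1 was higher and 5 lower at an unadjusted p under 0.05 (9.88% and 2.98% of the genes above background). The list median was -0.02, and its sign changed with the array left out. The sterol exporters of the canalicular membrane led: Abcg8 read 12.89, 12.50 and 12.63 at ZT6 and 11.33, 10.44 and 9.65 at ZT12. The difference of Abcg8 was -2.20 ± 0.55 (adjusted p = 0.192), and -2.52 on replicates 2 and 3 (adjusted p = 0.0531). Its partner Abcg5, a neighbouring gene on chromosome 17, read 12.14, 12.13 and 12.09 and then 10.96, 10.53 and 9.89 (-1.66 ± 0.48; adjusted p = 0.243). In both genes the ZT12 arrays lay below ZT6 in all 3 replicates, and no probe set of either was higher at ZT12. The export pumps Abcc2 (-0.81 ± 0.23) and Abcb11 (-0.66 ± 0.26) had adjusted p-values of 0.229 and 0.441, and the 5 became 3 without ZT6 replicate 1 and 2 with the brightest probe sets. Autophagy and lysosome genes counted 0 higher and 4 lower of 28 at an unadjusted p under 0.05 in limma (9.88% and 2.98% of the genes above background), with Ulk1, the kinase that starts autophagy, at -1.38 ± 0.38 (adjusted p = 0.216) after Gabarapl1. Bcl6, a repressor under growth hormone control, read 11.41, 11.74 and 11.08 at ZT6 and 7.49, 7.21 and 8.87 at ZT12, without overlap. Its difference was -3.56 ± 0.86 (adjusted p = 0.172), and -3.37 on replicates 2 and 3 (adjusted p = 0.179).

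Genes that make ribosomes and respiratory complexes were shifted by smaller amounts. Of 36 genes of ribosome biogenesis and RNA polymerase I, 31 had positive differences and 10 an unadjusted p under 0.05, all higher (9.88% of the genes above background), with a median of 0.32. Rrs1, a ribosome assembly factor, read 7.26, 6.83 and 6.93 and then 7.98, 7.66 and 8.17 (0.93 ± 0.22; adjusted p = 0.172), and Polr1b, a core subunit of RNA polymerase I, differed by 0.71 ± 0.20. ZT6 replicate 3 was the lowest array for 21 of the 36, and the count of 10 became 3 without it. The count was 4 without ZT12 replicate 3, without ZT12 replicate 1 or with the brightest probe sets. It was 6 with quantile normalization and 8 on replicates 2 and 3. Of 33 respiratory chain and ATP synthase genes, 30 had positive differences and 13 had all ZT12 arrays above ZT6 (1379 of the 10288 genes above background). At an unadjusted p under 0.05 there were 6, all higher (9.88% of the genes above background). Uqcrc1, a core protein of complex III, read 13.97, 13.97 and 14.04 and then 14.54, 14.43 and 14.61 (0.54 ± 0.14; adjusted p = 0.197). ZT6 replicate 3 was the lowest array for 17 and ZT12 replicate 3 the highest for 19 of these 33 genes. The count of 6 became 3 without either array or with quantile normalization, and 8 on replicates 2 and 3. The 31 proteasome subunits showed no such shift, with 0 at an unadjusted p under 0.05 in limma, none with groups apart, and a median of 0.01. Of the genes above background, 9.88% were higher and 2.98% lower at that p. The cytosolic ribosomal proteins had a median of 0.13.

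Of 25 heat shock genes and cytosolic chaperones, 8 were higher and 1 lower at an unadjusted p under 0.05 (9.88% and 2.98% of the genes above background), with a median of 0.32. The median was 0.62 on replicates 2 and 3, 0.63 without ZT6 replicate 1 and 0.17 without ZT6 replicate 3. Fkbp5 read 8.34, 8.46 and 7.90 at ZT6 and 9.55, 9.67 and 9.45 at ZT12 (1.32 ± 0.39; adjusted p = 0.253) and rose on replicates 2 and 3 (adjusted p = 0.0441). Hsph1 (1.33 ± 0.52), Stip1 (0.98 ± 0.33) and Cacybp (0.96 ± 0.30), which serve HSP70 and HSP90, had adjusted p-values of 0.305 to 0.428. ZT6 replicate 1 was the highest array for 10 of the 25. In it Dnajb1 read 11.73 against 7.71 and 7.19, and Hspa1a, the inducible HSP70, 7.97 against 4.44 and 4.69. The count of 8 became 12 on replicates 2 and 3, and 4 without ZT6 replicate 3 or with the brightest probe sets.

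The same array was high for immediate-early genes, which cells switch on within minutes of a stimulus. Of 21, 5 were lower at ZT12 and 0 higher at an unadjusted p under 0.05 in limma (3.77% and 5.35% of all genes), with a median of -0.30. Only 11 of the 21 lay above background, and the median was -1.35 with dim genes left out, -0.61 with the brightest probe sets and -0.47 without ZT6 replicate 2. Junb read 11.74, 9.02 and 8.92 at ZT6 and 7.17, 6.82 and 7.22 at ZT12 (-2.82 ± 0.67; adjusted p = 0.172), below in all replicates. Fos read 11.63, 5.48 and 4.85 and then 4.22, 4.36 and 4.40, and Egr1 read 12.93, 8.25 and 5.98 and then 5.24, 5.60 and 5.33. Both of these came mostly from ZT6 replicate 1. The list count was 1 on replicates 2 and 3, 2 without ZT6 replicate 1 and 3 without ZT12 replicate 1 or 3.

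Acute-phase proteins, which hepatocytes secrete in inflammation, were high in the other ZT6 arrays. Saa2 read 11.09, 16.94 and 19.32 at ZT6 and 10.46, 10.95 and 10.45 at ZT12, and both its probe sets reached the top value. Orm2 read 8.96, 13.57 and 14.39 and then 7.74, 8.87 and 8.80. ZT6 replicate 1 lay near the ZT12 values for both, and on replicates 2 and 3 Saa2 fell by 7.43 (adjusted p = 0.0231), Orm2 by 5.15 (adjusted p = 0.0128) and Lcn2 by 2.91 (adjusted p = 0.015). Of 23 measured members, all above background, 10 had all ZT12 arrays below ZT6 (592 of the 10288 genes above background). At an unadjusted p under 0.05, 3 were lower (2.98% of the genes above background), and the median was -0.38. The median was -0.16 without ZT12 replicate 1, -0.21 without ZT6 replicate 3 and 0 with the brightest probe sets. The count of 3 became 9 on replicates 2 and 3, 8 without ZT0 replicate 1, in which this list had its highest mean (17.7), 6 without ZT6 replicate 1, 1 without ZT12 replicate 3 and 0 without ZT6 replicate 3. Interferon response genes counted 3 lower and 0 higher of 20 at an unadjusted p under 0.05 in limma (3.77% and 5.35% of all genes), led by Mx2 at -1.16 ± 0.36 (adjusted p = 0.291). The 3 became 1 without ZT6 replicate 1 or ZT12 replicate 2 and 5 without ZT6 replicate 3.

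Markers of some non-parenchymal cells also stood higher at ZT12 than at ZT6. ZT6 had the lowest list mean of the 8 time points for endothelial markers (8.33, the others 8.72 to 9.15). The same held for stellate cell markers (7.80, the others 8.26 to 8.835). In bulk tissue, fewer cells of a type and less RNA per cell cannot be told apart. Of 13 endothelial markers, all above background, 12 had positive differences and 10 an unadjusted p under 0.05, all higher (9.88% of the genes above background), with a median of 0.73. The median was 0.07 in replicate 1 and 1.03 on replicates 2 and 3. Clec4g, a lectin of sinusoidal endothelium, read 11.27, 10.96 and 10.24 at ZT6 and 11.63, 12.30 and 12.32 at ZT12 (1.26 ± 0.34; adjusted p = 0.216). Clec4g, Kdr and Flt1, the last 2 being VEGF receptors, rose on replicates 2 and 3 (adjusted p = 0.0442, 0.0441 and 0.0273). The mean over the list was 8.72, 8.28 and 7.99 at ZT6, 8.62, 9.27 and 9.16 at ZT9 and 8.78, 9.15 and 9.19 at ZT12, with ZT6 replicate 3 the lowest of all 24 arrays. The count of 10 became 4 without that array, 6 without ZT12 replicate 2 or 3 and 2 with the brightest probe sets. All 12 stellate cell markers had positive differences, 4 at an unadjusted p under 0.05 (5.35% of all genes and 9.88% of those above background were higher). Among them Lrat, which esterifies retinol, differed by 1.57 ± 0.47 (adjusted p = 0.269). The list median was -0.02 in replicate 1 and 0.68 on replicates 2 and 3, and the list means were 7.73 to 7.94 at ZT6 and 8.003 to 8.60 at ZT12. The 4 became 1 with the brightest probe sets. Of 13 Kupffer cell markers, 0 had an unadjusted p under 0.05 in limma (9.88% of the genes above background were higher and 2.98% lower). Their list means were 8.39 to 8.58 and 7.91 to 8.38. The 12 neutrophil markers, all below background in their mean, had list means of 4.56 to 4.98 and 4.47 to 4.85. The part of these cell types in the lipid, chaperone and acute-phase results was not tested.

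**Figure D3:**
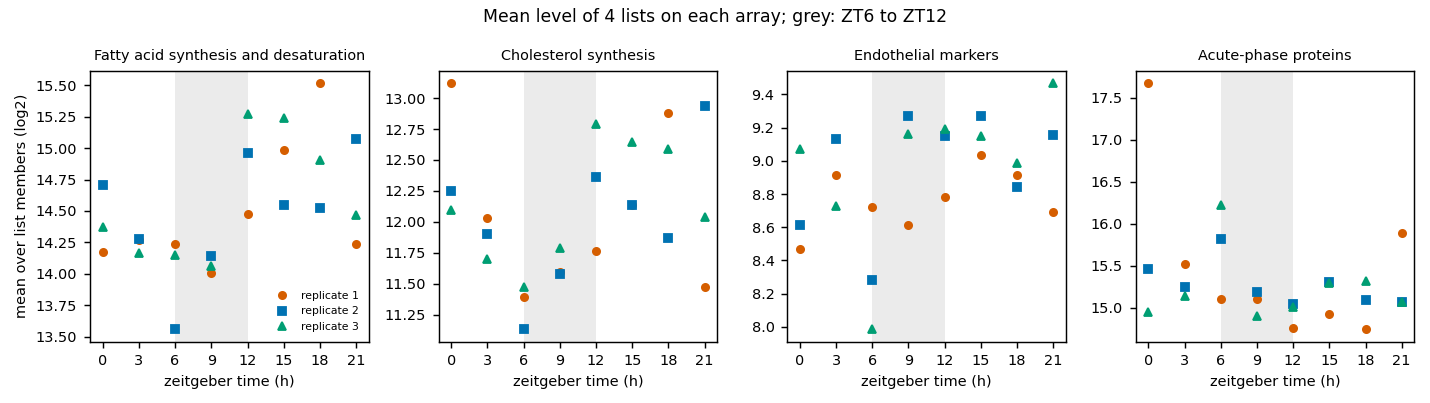
Mean log2 level over the members of 4 gene lists (vertical axis) on each of 24 arrays against zeitgeber time in hours; circles, squares and triangles are replicates 1, 2 and 3 and the grey band marks ZT6 to ZT12. ZT6 replicates 2 and 3 are low for endothelial markers (8.28 and 7.99) and high for acute-phase proteins (15.8 and 16.2), and ZT12 replicate 3 is high for fatty acid (15.3) and cholesterol (12.8) synthesis.

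Replicate 1 was set beside the 100 genes called on replicates 2 and 3, since it took no part in that call. Its ZT12 minus ZT6 difference had the same sign for 60 of the 100, 42 of 78 higher genes (53.8%) and 18 of 22 lower genes (81.8%), where 49.8% of all genes share the sign. The median size was 1.60 on replicates 2 and 3, and in replicate 1 the median difference in the called direction was 0.12. Cldn1, a tight junction protein, read 14.15 in ZT6 replicate 1 and 11.89 in ZT12 replicate 1, against 11.80 and 11.80 and then 14.44 and 14.70 in the others, a full crossing. Chka, choline kinase, ran alike, at 10.60 and 10.13 in replicate 1 and 8.45, 8.39, 11.32 and 11.46 in the others. Genes with steady direction in all 3 replicates included Aacs, Ppp1r3b, Cry1, Pltp and Rcan1. On the lower side, Slc7a2, a cationic amino acid transporter, read 15.04, 15.40 and 15.56 at ZT6 and 14.55, 12.62 and 11.93 at ZT12 and fell on replicates 2 and 3 by 3.21 (adjusted p = 0.0273), and Fbxo21 fell there by 2.60 (adjusted p = 0.015). At ZT9 the mean of replicates 2 and 3 lay between its ZT6 and ZT12 values for 84 of the 100 genes, nearer to ZT6 for 41 and nearer to ZT12 for 43. Over all genes it did so for 8631 of 23141, and the 100 were chosen for a wide gap between ZT6 and ZT12 on the same arrays, so this count is a description.

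**Figure D4:**
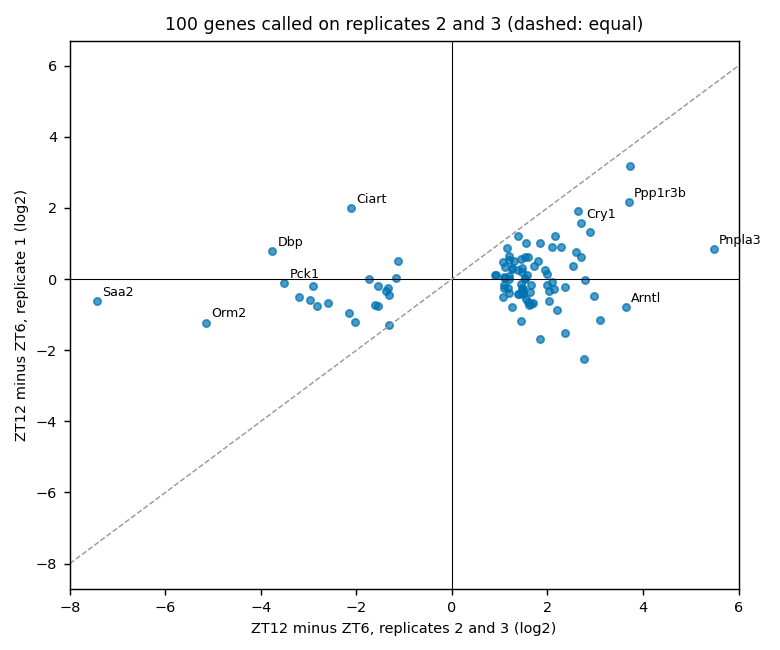
ZT12 minus ZT6 difference in replicate 1 (log2, vertical axis) against the difference on replicates 2 and 3 (log2, horizontal axis) for the 100 genes called on replicates 2 and 3; each point is 1 gene and the dashed line marks equal differences. Saa2 and Orm2 lie farthest to the left, with replicate 1 at -0.63 and -1.22, and 60 of the 100 points have the same sign on both axes.

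The step was compared with the step from ZT3 to ZT9, which starts earlier and shares no array with it. No gene differed at an adjusted p of 0.05 in limma (0%; smallest adjusted p = 0.348), with 1697 genes (7.33%) at an unadjusted p under 0.05; 57 differed on replicates 2 and 3, 4 without ZT6 replicate 1 and 3 without ZT12 replicate 1. Nr1d1 differed by -2.12 ± 0.82 from ZT3 to ZT9 against -3.51 ± 0.82 from ZT6 to ZT12. From ZT3 to ZT9 the list medians were 0.56 for ribosome biogenesis and 0.53 for heat shock genes, against 0.32 for both from ZT6 to ZT12. The fatty acid and cholesterol lists had -0.10 and -0.20 there, against 0.78 and 0.79. The mean of the ribosome biogenesis list was 9.07 at ZT6, 9.38 at ZT9 and 9.38 at ZT12. Differences between list medians were not tested.

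The step from ZT18 to ZT0 lies 12 h away and also shares no array. Here 135 genes differed (0.583%), 115 with the ZT6 to ZT12 step the higher (0.497%) and 20 with it the lower (0.0864%). All 135 had opposite signs in the 2 steps, which choosing genes by the difference between the steps favours, with median sizes of 0.78 from ZT6 to ZT12 and 0.88 from ZT18 to ZT0. Cry1 went by 2.32 ± 0.51 and then -2.92 ± 0.51 (adjusted p of the difference = 0.00447), with 10.74, 11.07 and 11.30 at ZT18 and 6.95, 7.71 and 9.69 at ZT0. Nr1d1 had -3.51 and 2.99 (adjusted p = 0.0144), and Per2 had 1.47 and -1.66 (adjusted p = 0.0224). Ppp1r3b had 3.19 and -2.42 (adjusted p = 0.00949), Srm 1.29 and -0.96 (adjusted p = 0.00949) and P2ry1 1.53 and -0.94 (adjusted p = 0.00447). The differences of Cry1, Nr1d1, Per2, Ppp1r3b and Srm also passed on replicates 2 and 3 (adjusted p = 0.0132 to 0.0471), and that of P2ry1 did not (0.073). Without ZT12 replicate 3 those of Nr1d1 (0.0597) and Per2 (0.0672) no longer passed.

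By list, 3 of 33 respiratory chain genes differed, all with the ZT6 to ZT12 step the higher: Uqcrc1 (0.54 and -0.75; adjusted p = 0.00533), Cyc1 (0.50 and -0.93; adjusted p = 0.0344) and Ndufa9 (0.26 and -0.63; adjusted p = 0.0319), where the list medians were 0.26 and -0.36. Only that of Uqcrc1 passed without ZT0 replicate 1 (0.013), and none of the 3 passed on replicates 2 and 3 (0.073 to 0.207). In lipid metabolism Pmvk, Agpat2, an acyltransferase of glycerolipid synthesis, Ces1d, a carboxylesterase, and Abcg5 passed (adjusted p = 0.0144 to 0.0478), and none of these 4 passed on replicates 2 and 3 (0.075 to 0.125). No member of the fatty acid list differed in limma at an adjusted p of 0.05, and its medians were 0.78 and -0.35. Without ZT0 replicate 1, 100 genes differed, 78 of them among the 135 (57.8% of the 135 and 78% of the 100). On replicates 2 and 3 there were 105, with 43 shared (31.9% and 41%). The count was 26 without ZT12 replicate 3, 40 without ZT6 replicate 3, 46 without ZT6 replicate 2 and 58 without ZT12 replicate 2. Quantile normalization gave 106 genes, 73 higher and 33 lower, so that the share of higher genes went from 85.2% to 68.9%.

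**Figure D5:**
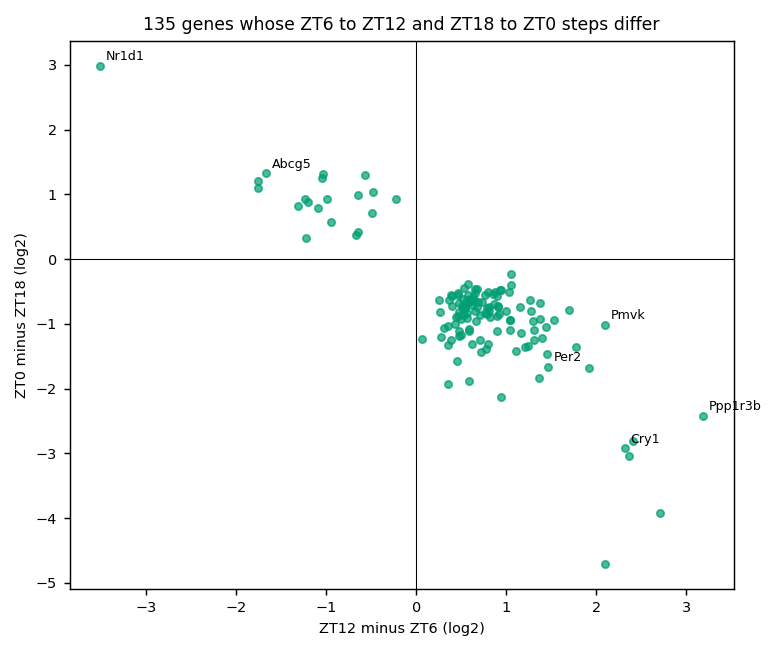
ZT0 minus ZT18 difference (log2, vertical axis) against ZT12 minus ZT6 difference (log2, horizontal axis) for the 135 genes whose steps differed at an adjusted p of 0.05; each point is 1 gene. All points lie upper left or lower right of the zero lines, 20 and 115 of them, with Nr1d1 at -3.51 and 2.99 and Cry1 at 2.32 and -2.92.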

How the data were processed

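Per the labels' protocols, total RNA was extracted with a Nucleospin RNA kit and labelled from 300 ng. The authors deposited 1 table of log2 values (log2 scale read from the values, 1.38 to 19.93) for 269479 probe sets on 24 arrays, normalized across arrays by a method that is not given in the sources used here. The submitters' processing notes name Affymetrix Power Tools 2.10.0, limma and mm10. Array medians were 6.44 to 6.51. The number of arrays limits the precision.

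Here 233753 probe sets with 1 symbol were averaged into 23141 genes (median 8 probe sets each); 5106 with several symbols and 30620 without were left out, and 2208 old symbols were updated through RefSeq. Probe sets reaching the top value (1038 of 314 genes) compress differences. Background is the 95 percentile of olfactory receptor genes (6.17), which 10288 genes exceeded. limma 3.58.1 in R 4.3.3 (two-sided moderated contrasts, 8 time-point means, 24 arrays) was tested on simulated data. No listed gene that is missing from the table was analysed here.

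The comparison, the 54 gene lists (909 genes measured) and the tests were chosen with earlier results of these data known. The rule for named genes, which leaves out unnamed gene models and receptor segments, takes the 15 largest changes each way among genes that pass, do not overlap and exceed background (here 0), every clock gene, up to 4 passing members of each other list or else its member with the smallest p, and, where fewer than 5 genes pass in a direction, the 8 with the smallest p. Other genes named were chosen after their values were seen. The main fit did not pair samples by replicate number. Over the genes above background, deviations of same-numbered ZT6 and ZT12 arrays correlated at 0.01, -0.02 and 0.02. This does not settle whether the numbers pair samples, since a shared shift in time can move a gene in opposite directions at ZT6 and ZT12. Promoters are RefSeq windows of GRCm38.p6; motifs were searched as letters on both strands.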

Additional observations from a re-analysis of the deposited data

Results flagged for a closer look

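The ZT6 to ZT12 step differed from the ZT18 to ZT0 step in 135 genes at an adjusted p of 0.05 in limma, a difference between groups that was tested directly as a contrast of both steps. Of the 135, 120 also had an unadjusted p under 0.05 in the ZT6 to ZT12 step alone and 130 in the ZT18 to ZT0 step alone, and the size was larger from ZT6 to ZT12 for 61 and from ZT18 to ZT0 for 74. The genes with the smallest adjusted p (0.00447) included Cry1, P2ry1 and Nat8f6, an N-acetyltransferase family member of which only 2 probe sets were averaged and which read 2.70 from ZT6 to ZT12 and -3.93 from ZT18 to ZT0.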

How the results depend on the processing

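The ZT12 minus ZT6 count of 0 genes became 5 with dim genes left out, 62 with array weights, 9 on the 6 arrays alone, 7 without the ZT0 arrays and 100 on replicates 2 and 3; leaving out single arrays gave 0 to 13. It stayed 0 with centring, quantile normalization, other probe set summaries, trended or robust priors and the unmoderated test. With a replicate block it was 0, and 2 on the 6 arrays with the block. Whether the replicate numbers pair the samples is not known. Of the 100, 29 were among the 62 with array weights. The difference from the ZT3 to ZT9 step went from 0 to 57 on replicates 2 and 3, and single arrays left out gave 0 to 4. The difference from the ZT18 to ZT0 step, 135 genes, became 205 with centring, 312 with dim genes left out, 14 with the brightest probe set, 39 with the median probe set, 263 with array weights, 81 unmoderated, 55 on the arrays of the 4 time points, 113 with the replicate block, and 26 to 177 without single arrays. The cause of these shifts was not tested. Of 1880 values of 86 named genes under alternatives, 56 passed the threshold, 40 in 20 genes changed sign without passing and none reversed past it. Of 308 counts for 14 lists, 46 moved by over 1.5 times. Centring shifted the median of all genes from -0.005 to 0.04. The fits without the ZT0 arrays and on the 6 arrays with the block had no value for the ZT18 to ZT0 comparison, which needs the ZT0 arrays and more than 6 arrays. Values at the table's top and genes below background limit what can be seen.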

Other observations

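A few other genes and lists are given here as values. Of 18 genes of NAD metabolism, 4 were higher and 0 lower at an unadjusted p under 0.05 in limma (9.88% and 2.98% of the genes above background). The list was led by Nmrk1, a nicotinamide riboside kinase, which read 10.10, 11.16 and 11.20 at ZT6 and 11.93, 11.69 and 12.28 at ZT12 (1.15 ± 0.28, adjusted p = 0.172). Esrra, a nuclear receptor of mitochondrial genes, read 6.80, 7.22 and 7.14 and then 7.90, 7.71 and 7.82 (0.75 ± 0.18; adjusted p = 0.172). Neither gene had overlapping groups. Enzymes of amino acid breakdown counted 2 higher and 2 lower of 26 at an unadjusted p under 0.05 in limma (9.88% and 2.98% of the genes above background). The smallest p of the list was that of Hal, which opens histidine breakdown, at 16.15, 15.60 and 15.89 and then 14.74, 14.61 and 14.77 (-1.18 ± 0.32, adjusted p = 0.219). Cbs, which takes homocysteine toward cysteine, differed by -1.05 ± 0.28 (adjusted p = 0.216).

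The drug-metabolizing P450 genes counted 0 higher and 1 lower of 26 at an unadjusted p under 0.05 in limma (9.88% and 2.98% of the genes above background). The lower one, Cyp3a25, read 14.31, 17.45 and 16.99 at ZT6 and 14.49, 14.59 and 13.35 at ZT12, so that ZT6 replicate 1 lay with the ZT12 arrays (-2.11 ± 0.91; adjusted p = 0.49). Cyp3a59 of the same family fell on replicates 2 and 3 by 2.15 (adjusted p = 0.0234); probe sets of such close relatives can share signal. The stem-like pericentral marker Lgr5 had the smallest p of its list. It read 7.86, 8.13 and 8.51 and then 7.35, 7.13 and 7.17 (-0.95 ± 0.37, adjusted p = 0.421). The 12 pericentral markers were mixed: 5 had positive differences, and the median was -0.17. At an unadjusted p under 0.05 in limma, 0 were higher and 2 lower (9.88% and 2.98% of the genes above background).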
